A study of Mus musculus with 9 samples.

Results

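Aminoacyl-tRNA synthetases join each amino acid to its transfer RNA (tRNA), the step that makes an amino acid available to the ribosome. The enzymes described here are the 20 genes of the cytosolic set and the 16 genes of the mitochondrial set, whose symbols end in 2. They were chosen by gene symbol, as an enzyme family, from a list drawn up with earlier results of these data in view. No measured value enters the rule, but the family itself was selected on knowledge of these comparisons, so every count and median over it is a description with no test. All 36 symbols occurred in the table of 23358 entries, each of them once, and all 36 passed the filter on low counts among 13240 genes tested.

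RNA was sequenced from mesenchymal stem cells, stromal cells grown from the marrow of adult C57BL/6 mice and used at passage 4 to 10. Every culture was in osteogenic medium and was lysed on day 4, and there were 3 groups of 3 libraries. The siCTL group received non-targeting siRNA, the GSK126 group that siRNA plus 5 µM GSK126, which inhibits Ezh2, the enzyme that methylates histone H3 at lysine 27 (H3K27), and the siBcat group an siRNA against beta-catenin (Ctnnb1), which carries Wnt signals to the nucleus and links cadherins to the cytoskeleton. The titles of siBcat say minus GSK, and its source names mention no inhibitor. Its count columns are marked like those of siCTL, without the plus found in the GSK126 columns. Its treatment label, however, names 5 µM GSK126, and grouping here was by title. The series text calls the replicates biological, but no label says that they came from different animals, so p-values measure the spread between these cultures.

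As a check of the labels, the Ctnnb1 transcript lay at 854.4 to 878.9 CPM (counts scaled to the size of the library) in siCTL, 905.9 to 949.7 CPM in GSK126 and 19.13 to 19.33 CPM in siBcat, a 44.9-fold loss against siCTL. GSK126 acts on the Ezh2 protein, so the Ezh2 transcript does not check that label; it had means of 23.7 ± 0.623, 27.85 ± 1.72 and 27.46 ± 0.447 CPM in the 3 groups in that order (SD, n = 3). Summed counts ran from 42324200 to 55898774 per library. Of 12 marrow stromal markers 11 were tested, and their sum was 22000 to 29400 CPM over all libraries, with Thy1 listed at 0 throughout. Col1a1 and Col1a2 made up most of that sum, with siCTL means of 8871 and 15380 CPM. Among the others, siCTL means ran from 1094 CPM for Itgb1 to 7.339 for Eng, 1.296 for Nt5e and 0.7315 for Lepr. Haematopoietic and macrophage markers summed to 9.64 to 14.4 CPM, with Ptprc, Emr1 and Tyrobp at 0, and endothelial markers to 1.45 to 2.26 CPM, with Tie1 at 0. The part of these other cell types in the synthetase values was not tested. GSK126 replicate 3 stood apart from its group in how its deviations ran with coding length (Spearman's rho across genes -0.585, against 0.437 and 0.476 in the other 2 GSK126 libraries and between -0.109 and 0.109 in the other groups). That library enters siBcat against siCTL only through the shared filter, scaling and estimate of spread. Without it, 14 cytosolic members were higher and 1 lower in that comparison, as with it. The GSK126 counts without it are given further down.

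The cytosolic and mitochondrial enzymes are both encoded in the nucleus and are mostly made from different genes. Gars and Kars each supply the glycyl and lysyl enzyme of both compartments, Eprs carries the glutamyl and prolyl activities in a single chain, and Farsa and Farsb are the subunits of the cytosolic phenylalanyl enzyme. Mitochondria make glutaminyl-tRNA by amidating glutamyl-tRNA, and so have no counterpart of Qars. When a tRNA lacks its amino acid, the kinase Gcn2 phosphorylates eIF2alpha, which favours translation of Atf4, a transcription factor whose known targets include asparagine synthetase, amino acid transporters and many cytosolic synthetases. In osteoblasts Atf4 is known for its part in amino acid import and collagen synthesis.

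In siBcat the cytosolic synthetases stood higher than in siCTL as a group, by modest amounts, whereas the counts of called mitochondrial enzymes were close to or below the shares over all genes. Of 20 cytosolic members 14 rose, 1 fell and 5 were not called, beside 17.7% of all genes tested called higher and 17.5% called lower (edgeR quasi-likelihood test, adjusted p under 0.05). Their median log2 fold change was 0.21, beside 0.00244 over all genes. Of 16 mitochondrial members 3 rose, 2 fell and 11 were not called, with a median of 0.06 (0.0123 to 0.0763 with single libraries left out). With GSK126 no cytosolic member rose and 2 fell, while 1 mitochondrial member rose and 1 fell (median 0.03 in each set, 0.0022 to 0.0536 for the mitochondrial set with single libraries left out, beside 0.00625 over all genes), beside 14.3% of all genes called higher and 10.7% called lower. At an unadjusted p under 0.05, 2 of 20 cytosolic members were higher with GSK126, beside 2710 of 13240 genes tested. Both treatments are set against the same siCTL libraries. In bulk RNA, fewer cells of a type and less RNA per cell cannot be told apart.

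The sequences below show a motif shared by several cytosolic genes that rose in siBcat. The motif is TGATGNAA on either strand, read as TTNCATCA on the other, and resembles the composite element through which Atf4 and C/EBP proteins are known to bind amino acid response genes. Promoters of 300 bases, from 250 before to 50 after the annotated start, were available for 26 of the 36 members (RefSeq, GRCm38.p6). Cars, Hars, Hars2, Lars, Mars, Nars, Pars2, Rars, Vars and Wars had no entry. The promoters of 4 genes with a match are printed 5′ to 3′ on the gene's strand, in order of adjusted p in siBcat, with the match in capitals: Gars (chr6:55037751-55038050, plus strand), Aars (chr8:111033592-111033891, plus strand), Tars (chr15:11399609-11399908, minus strand) and Iars (chr13:49681880-49682179, plus strand).
Gars: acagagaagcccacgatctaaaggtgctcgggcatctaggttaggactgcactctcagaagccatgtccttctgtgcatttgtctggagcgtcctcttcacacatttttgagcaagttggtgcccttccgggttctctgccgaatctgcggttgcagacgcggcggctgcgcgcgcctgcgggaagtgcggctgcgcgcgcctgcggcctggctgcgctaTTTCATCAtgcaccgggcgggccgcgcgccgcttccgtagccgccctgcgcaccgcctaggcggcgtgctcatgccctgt
Aars: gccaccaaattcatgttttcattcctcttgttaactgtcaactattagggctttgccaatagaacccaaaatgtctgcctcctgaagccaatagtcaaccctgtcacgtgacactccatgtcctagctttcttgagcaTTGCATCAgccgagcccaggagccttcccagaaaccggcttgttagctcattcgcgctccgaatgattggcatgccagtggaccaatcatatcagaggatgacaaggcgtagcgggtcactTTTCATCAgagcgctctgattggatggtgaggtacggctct
Tars: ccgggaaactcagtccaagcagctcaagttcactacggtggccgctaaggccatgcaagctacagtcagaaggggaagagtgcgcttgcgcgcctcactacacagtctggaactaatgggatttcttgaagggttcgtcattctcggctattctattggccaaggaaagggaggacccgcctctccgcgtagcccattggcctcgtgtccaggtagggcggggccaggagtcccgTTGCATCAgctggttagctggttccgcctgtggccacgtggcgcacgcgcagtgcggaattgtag
Iars: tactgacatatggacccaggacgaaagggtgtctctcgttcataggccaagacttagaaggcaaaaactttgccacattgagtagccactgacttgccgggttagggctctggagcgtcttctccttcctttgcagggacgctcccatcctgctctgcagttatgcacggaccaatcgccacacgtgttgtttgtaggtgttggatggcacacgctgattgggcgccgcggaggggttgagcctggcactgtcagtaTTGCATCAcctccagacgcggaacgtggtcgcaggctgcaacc
Counting from the start site of the promoter annotation, the match began at -30 in Gars, at -112 and 9 in Aars, at -15 in Tars and at 7 in Iars. For Aars that annotation differs from the gene positions given with the counts. Its window ends at 111033891, before the gene start at 111033967, so both of its matches lie upstream of the latter. All of these matches read TTNCATCA on the gene's strand, with TTTCATCA in Gars and in the second match of Aars, and TTGCATCA in the others. Yars held the same motif in the other orientation, TGATGCAA, starting at 3.

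Of the 12 cytosolic members with a promoter, 5 held the motif (41.7%). All 5 were among the 9 called higher in siBcat, and the other 3 of the 12, which were not called, held none. None of 15 promoters of 14 mitochondrial members held it. Over all 32851 promoters of the same length the share was 3.97%. A match in these letters is a description of the window and was not tested for binding. The 8 cytosolic genes without an entry include Cars and Rars, which were among the largest increases, and Wars, the cytosolic gene that fell.

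Gars, the glycyl-tRNA synthetase of both compartments (chromosome 6, 55038001 to 55079504), had the largest log2 fold change of the cytosolic set in siBcat. It had 161.4, 164.3 and 168.2 CPM in siCTL, 167, 161 and 188.7 CPM in GSK126 and 217.3, 218.8 and 225.2 CPM in siBcat. The increase was 33.9% (adjusted p = 0.000145, log2 fold change 0.42 ± 0.0597 SE). Its 3 siBcat libraries lay above all 6 others, and GSK126 replicate 3 was the highest of those 6.

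**Figure D1:**
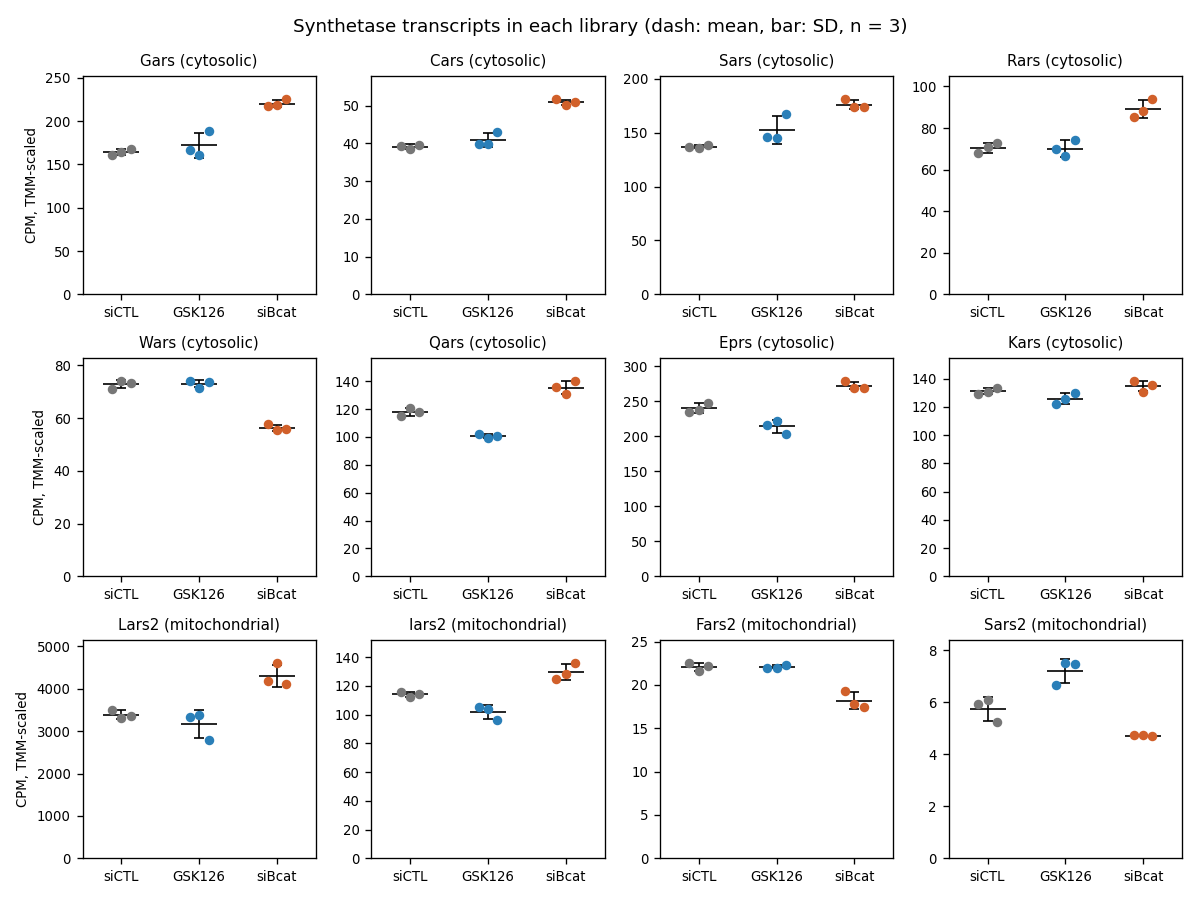
Level of 12 synthetase transcripts in each of 9 libraries, as CPM (y axis from 0), by group (x axis). Points are libraries, dashes means and bars SDs (n = 3). Gars, Cars, Sars and Rars were higher in all siBcat libraries than in all others, Wars was lower, Qars, Eprs and Iars2 lay lowest in GSK126 and highest in siBcat, and Sars2 lay highest in GSK126 and lowest in siBcat.

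Cars charges tRNA with cysteine and Sars with serine. Cars (chromosome 7, 143557230 to 143600090) measured 39.37, 38.48 and 39.68 CPM in siCTL, 39.78, 39.83 and 42.91 CPM in GSK126 and 51.67, 50.27 and 50.85 CPM in siBcat, an increase in siBcat of 30% (adjusted p = 0.000164, log2 fold change 0.38 ± 0.0545 SE). For Sars (chromosome 3, 108424864 to 108445259) the values were 137, 135.4 and 138.2 CPM in siCTL, 145.7, 144.6 and 167.7 CPM in GSK126 and 180.8, 173.5 and 173.5 CPM in siBcat, and the increase was 28.5% (adjusted p = 0.000475, log2 fold change 0.36 ± 0.0599 SE). In both genes the siBcat libraries lay above every other library. GSK126 libraries also lay above all siCTL libraries, but neither difference passed the test (0.06, adjusted p = 0.447 for Cars, and 0.16, adjusted p = 0.0723 for Sars). With library size as the only scaling the Sars difference in GSK126 passed (adjusted p = 0.0491), as it did with the trend on coding length removed (adjusted p = 0.0393).

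Rars, the arginyl enzyme (chromosome 11, 35808381 to 35834528), measured 67.96, 70.79 and 72.65 CPM in siCTL, 69.74, 66.43 and 74.27 CPM in GSK126 and 85.27, 88.08 and 93.79 CPM in siBcat, and rose by 26.4% in siBcat (adjusted p = 0.000713, log2 fold change 0.34 ± 0.059 SE). Iars, the isoleucyl enzyme (chromosome 13, 49682130 to 49734267), measured 80.54, 78.5 and 78.09 CPM in siCTL, 74.19, 77.13 and 65.88 CPM in GSK126 and 100.0, 95.08 and 97.29 CPM in siBcat, an increase of 23.3% (adjusted p = 0.00186, log2 fold change 0.30 ± 0.0604 SE). In Rars the GSK126 libraries overlapped those of siCTL. In Iars all GSK126 libraries lay below all siCTL libraries, a difference that did not pass the test (-0.13, adjusted p = 0.144).

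Alanyl, threonyl, asparaginyl and methionyl enzymes rose by similar amounts. Aars (chromosome 8, 111033967 to 111056870) gave 201.6, 201.4 and 204 CPM in siCTL, 209.1, 205.6 and 207.9 CPM in GSK126 and 255, 239.1 and 241.1 CPM in siBcat, an increase of 21.1% in siBcat (adjusted p = 0.000503, log2 fold change 0.28 ± 0.046 SE). Tars (chromosome 15, 11383663 to 11399658) had 97.06, 101.2 and 92.77 CPM in siCTL, 99.95, 101.5 and 105.8 CPM in GSK126 and 120.7, 116.3 and 116.5 CPM in siBcat, an increase of 21.5% (adjusted p = 0.000965, log2 fold change 0.28 ± 0.0511 SE). The siBcat libraries of both genes lay above all others. Nars (chromosome 18, 64499647 to 64516557) had 215.9, 222.7 and 231.2 CPM in siCTL, 225.9, 217.6 and 238.5 CPM in GSK126 and 271.4, 268 and 271.9 CPM in siBcat, and rose by 21.1% (adjusted p = 0.000981, log2 fold change 0.28 ± 0.0504 SE). Mars (chromosome 10, 127296221 to 127311786) had 77.51, 77.35 and 80.38 CPM in siCTL, 80.34, 79.47 and 77.45 CPM in GSK126 and 94.09, 92.7 and 92.56 CPM in siBcat, and rose by 18.7% (adjusted p = 0.00123, log2 fold change 0.25 ± 0.0467 SE). In these 2 genes, too, every siBcat library exceeded every library of the other groups, and siCTL and GSK126 overlapped.

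The other 5 cytosolic members that rose did so by less. Lars, the leucyl enzyme, rose by 0.21 on the log2 scale (adjusted p = 0.004), Qars, the glutaminyl enzyme, by 0.20 (adjusted p = 0.00605), and Eprs by 0.18 (adjusted p = 0.0132). Yars, the tyrosyl enzyme, rose by 0.19 (adjusted p = 0.0344) and Farsb, a subunit of the phenylalanyl enzyme, by 0.15 (adjusted p = 0.0342). The last 3 calls depended on single libraries. Eprs was not called without siCTL replicate 1 (adjusted p = 0.059), siCTL replicate 2 (0.0753) or siBcat replicate 1 (0.0778). Farsb was not called when any siCTL or siBcat library was left out (adjusted p from 0.0501 to 0.115), nor Yars when any of them except siBcat replicate 2 was (0.0623 to 0.16).

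Wars, the tryptophanyl enzyme and a gene known to be induced by interferon-gamma, was the only cytosolic member that fell (chromosome 12, 108860030 to 108894174). It measured 71.22, 73.96 and 73.46 CPM in siCTL, 73.94, 71.57 and 73.64 CPM in GSK126 and 57.61, 55.33 and 55.89 CPM in siBcat. The loss was 22.8% (adjusted p = 7.02e-05, log2 fold change -0.37 ± 0.0484 SE). All 3 siBcat libraries lay below the other 6, and GSK126 did not differ detectably from siCTL (log2 fold change 0.0035, adjusted p = 0.967). Of 16 interferon response genes, 13 rose and 1, Irf1, fell in siBcat (median log2 fold change 1.22), beside 17.7% and 17.5% of all genes. Replicate 1 of siBcat stood apart in these genes: their mean log2 difference from siCTL was 2.248 there, against 1.25 and 1.388 in replicates 2 and 3. The 3 with the smallest adjusted p were Tap1 (adjusted p = 4.98e-06, log2 fold change 0.76 ± 0.0721 SE), which carries peptides for antigen presentation, Usp18 (adjusted p = 0.000188, log2 fold change 4.58 ± 0.552 SE), which restrains interferon signalling and measured 12.47, 4.655 and 4.114 CPM in the siBcat libraries, and Irf9 (adjusted p = 0.000347, log2 fold change 1.16 ± 0.161 SE), a subunit of the interferon-activated factor ISGF3.

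Dars, Farsa, Hars, Kars and Vars were called in none of the 3 comparisons. Kars, the lysyl enzyme of both compartments, gave 129.2, 130.6 and 133.6 CPM in siCTL, 121.9, 125.6 and 130.0 CPM in GSK126 and 138.1, 130.9 and 135.4 CPM in siBcat and differed in siBcat by 0.04 (SE 0.0485, adjusted p = 0.561). The siBcat differences of the other 4 were 0.06 for Dars, -0.07 for Farsa, 0.04 for Hars and 0.04 for Vars, with adjusted p between 0.397 and 0.695. Kars was called higher in siBcat than in GSK126 when GSK126 replicate 3 was left out (adjusted p = 0.0126). Farsa and Farsb encode subunits of the same enzyme, and only the difference of Farsb passed the test; the difference between them was not tested.

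Grouped by structure, 8 of the 10 cytosolic members of class I rose and 1 fell in siBcat (median 0.206), as did 6 and 0 of the 10 of class II (median 0.215), with Eprs counted in class I by its glutamyl domain. Over all genes, 17.7% were called higher and 17.5% lower. Of the 8 members of the multisynthetase complex, in which several synthetases are held together, 6 rose and none fell (median 0.206); Dars and Kars were not called. Outside the complex 8 of 12 rose and 1 fell (median 0.235). Aimp2 and Eef1e1, which with Aimp1 form the scaffold of the complex, rose by 0.38 (adjusted p = 0.00257) and 0.30 (adjusted p = 0.0328), and Aimp1 differed by 0.14 (adjusted p = 0.242). Aimp2 rose with GSK126 as well (0.29, adjusted p = 0.0188). Neither Aimp2 nor Eef1e1 was called in siBcat against GSK126 (0.09, adjusted p = 0.385, and 0.14, adjusted p = 0.279). These groupings were added after the values were seen, and those by class and complex divide the same called members counted above.

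**Figure D2:**
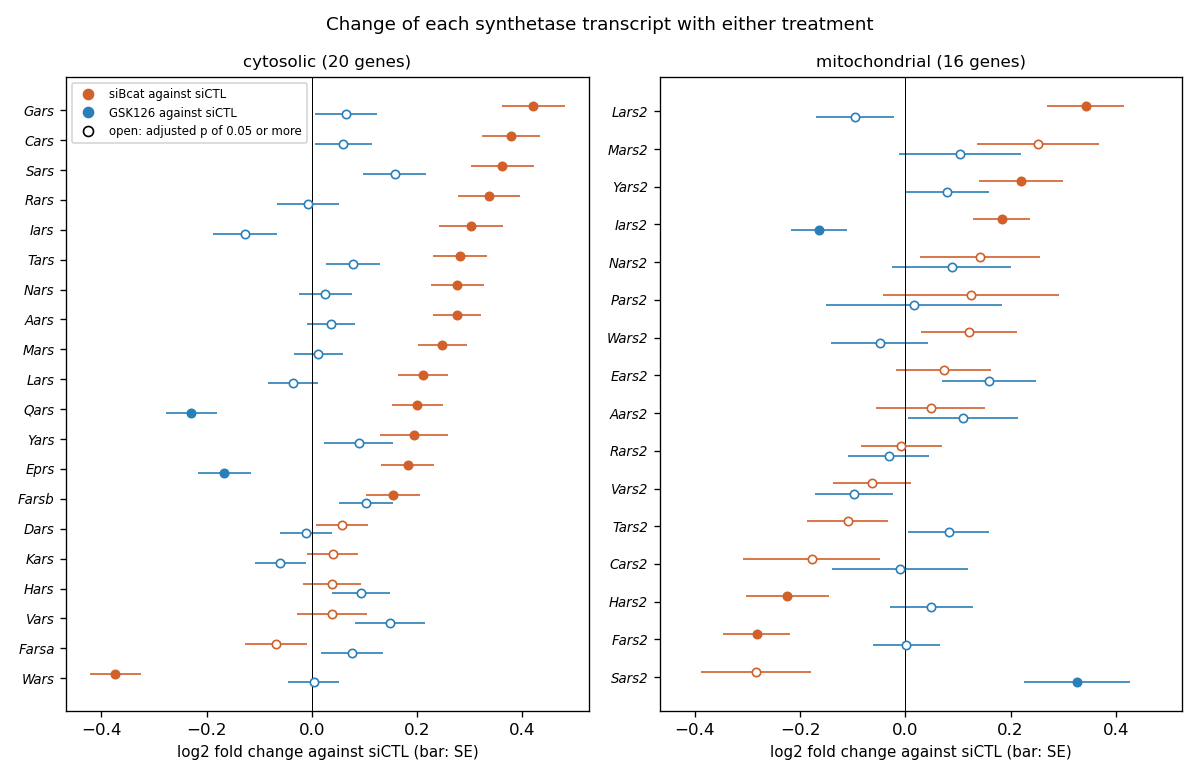
Log2 fold change of each synthetase transcript against siCTL (x axis, bars: SE) for siBcat and for GSK126, in the cytosolic (left) and mitochondrial (right) set. Filled points have an adjusted p under 0.05. In siBcat 14 cytosolic members are filled to the right of 0 and Wars alone to its left, whereas 3 mitochondrial members are filled to the right and 2 to the left.

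Among the mitochondrial enzymes Lars2, the leucyl enzyme (chromosome 9, 123366940 to 123462664), rose most in siBcat. Its levels were 3511, 3307 and 3355 CPM in siCTL, 3337, 3391 and 2793 CPM in GSK126 and 4183, 4599 and 4123 CPM in siBcat, and the increase was 26.8% (adjusted p = 0.00296, log2 fold change 0.34 ± 0.0735 SE). Every siBcat library lay above the other 6, and GSK126 replicate 3 was the lowest of all. Lars2 also stood far from the other members in level. Per kilobase of coding length, its siCTL mean was 873.8 CPM, while the next highest of the 36, Nars, stood at 84.26.

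The table's entry for the ribosomal RNA precursor, Rn45s, moved in the same direction. It held 12910, 12790 and 11670 CPM in siCTL, 11390, 11050 and 10350 CPM in GSK126 and 17040, 20810 and 14750 CPM in siBcat, and rose in siBcat (adjusted p = 0.00286, log2 fold change 0.49 ± 0.103 SE). The ratio of Rn45s to Lars2 lay between 3.26 and 4.52 over the 9 libraries. Whether reads of other origin were counted in Lars2 was not tested, so the mitochondrial set is also given without it. Its other 15 members had 2 that rose and 2 that fell in siBcat, with a median of 0.05.

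Iars2, the isoleucyl enzyme (chromosome 1, 185286662 to 185329401), had 115.7, 112.3 and 114.2 CPM in siCTL, 105.4, 103.7 and 96.23 CPM in GSK126 and 124.9, 128 and 135.6 CPM in siBcat. It rose by 13.5% in siBcat (adjusted p = 0.0179, log2 fold change 0.18 ± 0.0536 SE), with no overlap between its siBcat libraries and the others. Yars2, the tyrosyl enzyme (chromosome 16, 16302965 to 16309640), had 9.683, 9.917 and 10.4 CPM in siCTL, 10.67, 10.38 and 10.63 CPM in GSK126 and 12.08, 12.02 and 10.85 CPM in siBcat. It rose by 16.5% (adjusted p = 0.0484, log2 fold change 0.22 ± 0.08 SE), and its lowest siBcat library was only a little above the highest GSK126 library. The Iars2 call ended without siCTL replicate 2 (adjusted p = 0.0949) or siBcat replicate 3 (0.0996). The Yars2 call ended in 13 of 21 alternatives, among them leaving out any siCTL library, GSK126 replicate 1 or 2, or siBcat replicate 1 or 2 (adjusted p from 0.0543 to 0.163).

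Fars2 and Hars2, the phenylalanyl and histidyl enzymes, fell. Fars2 (chromosome 13, 36117411 to 36537593) measured 22.49, 21.6 and 22.2 CPM in siCTL, 22.01, 22 and 22.35 CPM in GSK126 and 19.28, 17.81 and 17.42 CPM in siBcat, a loss of 17.8% in siBcat (adjusted p = 0.0042, log2 fold change -0.28 ± 0.064 SE). Hars2 (chromosome 18, 36783280 to 36792560) gave 24.12, 25.65 and 26.01 CPM in siCTL, 24.31, 25.77 and 28.36 CPM in GSK126 and 19.58, 22.55 and 22.71 CPM in siBcat, a loss of 14.4% (adjusted p = 0.0432, log2 fold change -0.22 ± 0.0793 SE). In both genes all siBcat libraries lay below all others. The Hars2 call ended without siCTL replicate 2 (adjusted p = 0.0972) or 3 (0.111), or without siBcat replicate 1 (0.147), 2 (0.0583) or 3 (0.0539). Hars ends at 36783205 on chromosome 18 and Hars2 starts at 36783280, and no source used here states whether counting used strand, so reads near that border could have been assigned to either. Other positions overlap outright. On chromosome 10 Mars starts at 127296221, before the amino acid response gene Ddit3 ends at 127296288. On chromosome 5 Aimp2 starts at 143902704, before the kinase gene Eif2ak1 ends at 143902717. How reads in these overlaps were counted is not stated either.

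The other 11 mitochondrial members were not called in siBcat. Sars2, the seryl enzyme, was the closest to the threshold, at -0.28 (SE 0.105, adjusted p = 0.0507); it passed in 8 of 21 alternatives, including without siCTL replicate 3 (0.032) or GSK126 replicate 3 (0.0412). Mars2, the methionyl enzyme, had a similar size in the other direction (0.25, SE 0.116, adjusted p = 0.111), and was called without GSK126 replicate 3 (0.0374). The remaining 9 (Aars2, Cars2, Ears2, Nars2, Pars2, Rars2, Tars2, Vars2 and Wars2) lay between -0.18 and 0.14.

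The depth behind the calls differed between the compartments. Mean counts per library ran from 1947 to 11370 over the cytosolic members (median 4489) and from 200.2 to 170100 over the mitochondrial members (median 563.3), with Lars2 the highest. The SE of the siBcat log2 fold change was 0.05 in the median for cytosolic members and 0.09 for mitochondrial ones, and reached 0.167. Differences of the size seen in many cytosolic genes could therefore be missed in the mitochondrial genes with the fewest counts.

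Library by library, the mean log2 difference from the siCTL mean over the cytosolic set was 0.19, 0.158 and 0.186 in siBcat, against -0.012, 0.001 and 0.011 in siCTL and 0.008, -0.011 and 0.049 in GSK126. Over the mitochondrial set it was 0.041, 0.013 and 0.014 in siBcat, -0.005, 0.033 and -0.028 in siCTL, and 0.051, 0.041 and 0.005 in GSK126. The cytosolic mean of each siBcat library was thus above that of every other library, while the mitochondrial means of all groups overlapped. Summed over the set, cytosolic synthetases took 2159 to 2201 CPM in siCTL, 2151 to 2244 CPM in GSK126 and 2487 to 2546 CPM in siBcat.

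**Figure D3:**
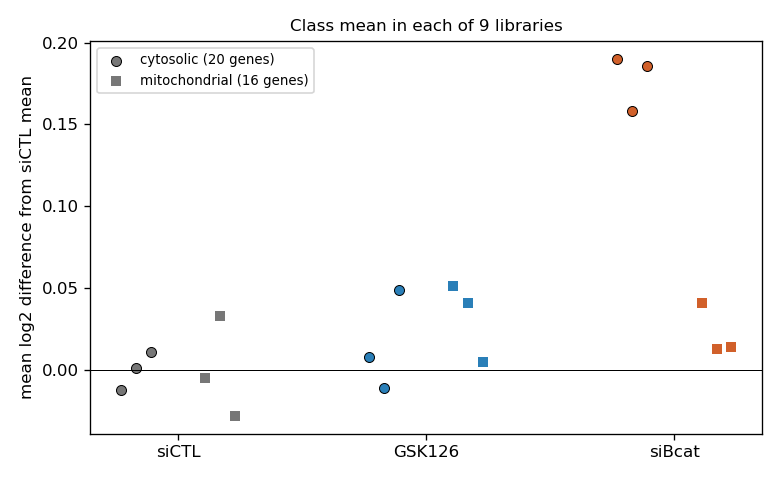
Mean log2 difference from the siCTL mean over 20 cytosolic (circles) and 16 mitochondrial (squares) members in each of 9 libraries, by group (x axis). The cytosolic means of the siBcat libraries lie between 0.158 and 0.19, above the highest of the other libraries at 0.049, and the mitochondrial means lie between -0.028 and 0.051 in all groups.

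For 13 amino acids the family holds a single cytosolic and a single mitochondrial gene, and these pairs compare enzymes of the same reaction. The cytosolic gene had the higher log2 fold change in siBcat in 9 of 13 pairs, with a median difference of 0.13. The widest gaps in that order were between Sars and Sars2 (0.65), Cars and Cars2 (0.56), and Tars and Tars2 (0.39). The order was opposite for Wars and Wars2 (-0.49), Lars and Lars2 (-0.13), Yars and Yars2 (-0.03), and Mars and Mars2, which lay close together at 0.25 and 0.25. With GSK126 the cytosolic gene was higher in 8 of 13 pairs, with a median difference of 0.03. These differences within pairs were not tested.

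**Figure D4:**
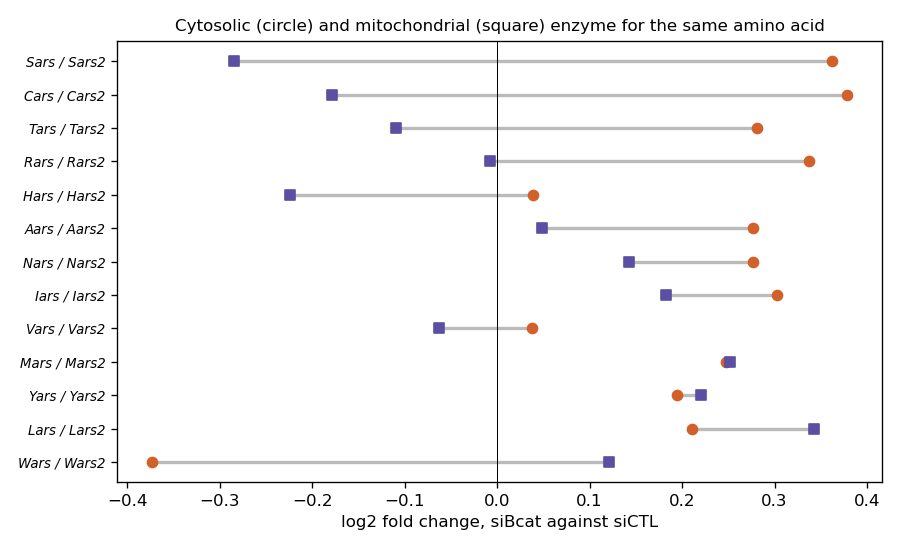
Log2 fold change of siBcat against siCTL (x axis) for the cytosolic (circle) and mitochondrial (square) gene of 13 amino acids (y axis), joined by a line. The circle lies to the right of the square in 9 of 13 pairs, and Wars and Wars2 show the widest gap in the opposite order.

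In level, too, the cytosolic gene was usually the higher of a pair. Per kilobase of coding length in siCTL it exceeded the mitochondrial gene in 11 of 13 pairs, with a median ratio of 5.5 and a highest ratio of 54.7 for Nars over Nars2. Iars and Iars2 were at 17.98 and 32.22 CPM per kilobase and Lars and Lars2 at 22.53 and 873.8, the 2 exceptions. Kars and Gars, which serve both compartments, were among the highest of the set, at 60.34 and 68.88 CPM per kilobase. The lowest were Pars2 at 1.335, Nars2 at 1.541 and Wars2 at 2.466 CPM per kilobase.

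Of all 36 members 1 rose and 3 fell with GSK126, shares below the 14.3% and 10.7% of all genes called higher and lower. The 3 that fell, Qars, Eprs and Iars2, were called higher in siBcat, and only the Qars call held in all 21 alternatives. Qars (chromosome 9, 108508005 to 108515941), the glutaminyl enzyme, had 115.3, 120.6 and 117.7 CPM in siCTL, 101.9, 98.95 and 101 CPM in GSK126 and 135.9, 130.6 and 139.9 CPM in siBcat. With GSK126 it fell by 14.7% (adjusted p = 0.00437, log2 fold change -0.23 ± 0.0483 SE), and its 3 groups did not overlap, GSK126 being the lowest and siBcat the highest.

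Eprs, the glutamyl and prolyl enzyme, and Iars2 followed the same order; they lie near each other on chromosome 1, Iars2 at 185286662 to 185329401 and Eprs at 185363095 to 185428355. Eprs measured 235, 237.3 and 248.3 CPM in siCTL, 216.9, 222 and 203.3 CPM in GSK126 and 278.5, 269.7 and 269.5 CPM in siBcat, and fell by 10.9% with GSK126 (adjusted p = 0.0291, log2 fold change -0.17 ± 0.0502 SE). Iars2 fell by 10.7% (adjusted p = 0.0409, log2 fold change -0.16 ± 0.0536 SE). Both had GSK126 libraries below all siCTL libraries, with GSK126 replicate 3 the lowest. Neither call held when some libraries were left out. Eprs was not called without siCTL replicate 2 (adjusted p = 0.0551), siCTL replicate 3 (0.0944) or GSK126 replicate 1 (0.0513). Iars2 was not called without any of the siCTL libraries, GSK126 replicate 2, or siBcat replicate 2 or 3 (adjusted p from 0.0508 to 0.105).

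Sars2 (chromosome 7, 28741968 to 28753879) was the member that rose with GSK126. It measured 5.927, 6.083 and 5.22 CPM in siCTL, 6.677, 7.488 and 7.45 CPM in GSK126 and 4.724, 4.736 and 4.683 CPM in siBcat, and the increase was 25.4% (adjusted p = 0.0324, log2 fold change 0.33 ± 0.101 SE). Its groups did not overlap, with GSK126 the highest and siBcat the lowest, the reverse of Qars. The call ended without any of the siCTL libraries, GSK126 replicate 2 or 3, or siBcat replicate 1 (adjusted p from 0.0506 to 0.121). Its counts were low, from 194 to 384 per library.

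Without GSK126 replicate 3, GSK126 had 0 cytosolic members higher and 2 lower, and 0 mitochondrial members higher and 1 lower. With the trend on coding length removed, Qars was still called lower, Eprs (adjusted p = 0.0562) and Sars2 (0.0689) were not, and Sars (0.0393) and Vars (0.042) were called higher.

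Counting libraries instead of calls, all siBcat libraries lay above all siCTL libraries in 14 cytosolic and 5 mitochondrial members, beside 28% of all genes, and below them in 1 and 5, beside 27.2%. With GSK126 the counts above were 4 cytosolic and 2 mitochondrial members, beside 21.9% of all genes, and those below were 3 and 1, beside 20.2%. As shares of 20 and of 16, the GSK126 counts were not above these backgrounds.

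Set directly against GSK126, siBcat had 12 cytosolic members higher and 1 lower, with 7 not called (median 0.22), and 2 mitochondrial members higher and 3 lower (median 0.03, from -0.016 to 0.0523 with single libraries left out), beside 19.3% of all genes called higher and 21.9% called lower. The smallest adjusted p among cytosolic members were those of Qars (adjusted p = 1.62e-05, log2 fold change 0.43 ± 0.0483 SE), Wars (adjusted p = 4.82e-05, log2 fold change -0.38 ± 0.0484 SE), Iars (adjusted p = 0.000104, log2 fold change 0.43 ± 0.0604 SE), Eprs (adjusted p = 0.000125, log2 fold change 0.35 ± 0.0503 SE) and Gars (adjusted p = 0.000407, log2 fold change 0.36 ± 0.0596 SE). In the mitochondrial set they were those of Iars2 (adjusted p = 0.000219, log2 fold change 0.35 ± 0.0536 SE), Lars2 (adjusted p = 0.000411, log2 fold change 0.44 ± 0.0736 SE), Sars2 (adjusted p = 0.00042, log2 fold change -0.61 ± 0.103 SE), Fars2 (adjusted p = 0.00324, log2 fold change -0.28 ± 0.0638 SE) and Hars2 (adjusted p = 0.0142, log2 fold change -0.27 ± 0.079 SE). Hars2 was not called without siBcat replicate 1 (adjusted p = 0.0701). Of the 14 cytosolic members that rose in siBcat against siCTL, 12 also passed this direct test, and Farsb and Yars did not (0.05, adjusted p = 0.454, and 0.11, adjusted p = 0.218). Yars passed it without GSK126 replicate 3 (adjusted p = 0.0133), and Sars did not pass without GSK126 replicate 1 (adjusted p = 0.0581), GSK126 replicate 2 (0.0544) or siBcat replicate 1 (0.0608).

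Other genes of the amino acid response were counted beside the synthetases. The list of 32 holds Atf4, known Atf4 targets and amino acid transporters. In siBcat 20 of them rose and none fell (median 0.34), beside 17.7% of all genes called higher and 17.5% called lower. Asns, which makes asparagine, had 28.1, 33.15 and 33.02 CPM in siCTL, 44.9, 44.24 and 45.79 CPM in GSK126 and 75.14, 76.83 and 79.35 CPM in siBcat. Bcat1, which starts the breakdown of branched-chain amino acids, rose by 0.92 (SE 0.0583, adjusted p = 1.61e-07) and Mthfd2, of mitochondrial folate metabolism, by 0.86 (SE 0.0744, adjusted p = 2.29e-06). With GSK126, 9 of the 32 rose and 5 fell (median 0.08), beside 14.3% of all genes called higher and 10.7% called lower. The smallest adjusted p of those that rose were at the secreted glycoprotein gene Stc2 (0.82, adjusted p = 2.43e-05), Asns (0.52, adjusted p = 0.000137) and the glutamine transporter gene Slc1a5 (0.36, adjusted p = 0.000377). The 5 that fell were the stress response gene Nupr1 and the amino acid transporter genes Slc7a11, Slc1a4, Slc38a2 and Slc7a5. None of these 5 was called in siBcat against siCTL. In the direct comparison 18 of the 32 were higher in siBcat and none lower, beside 19.3% of all genes called higher and 21.9% called lower.

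The Atf4 transcript itself was not called. It measured 140.5, 131.5 and 135.8 CPM in siCTL, 144.8, 139.1 and 171.2 CPM in GSK126 and 149.3, 153.1 and 142.5 CPM in siBcat, a difference of 0.13 in siBcat (SE 0.0717, adjusted p = 0.199) and 0.16 with GSK126 (SE 0.0717, adjusted p = 0.125). Atf4 is known to be controlled mainly at translation, which transcript counts do not measure. Of 7 genes for eIF2alpha, its kinases and Gcn2 regulators, 3 rose in siBcat and 1, the kinase gene Eif2ak1, fell. The shares over all genes were 17.7% called higher and 17.5% called lower. With GSK126 none was called, beside 14.3% of all genes called higher and 10.7% called lower. At an unadjusted p under 0.05, 1 of the 7 was lower with GSK126, beside 2315 of 13240 genes tested. Impact, whose product restrains Gcn2, gave 87.37, 87.98 and 91.92 CPM in siCTL, 90.41, 96.1 and 89.2 CPM in GSK126 and 156.3, 161 and 159.9 CPM in siBcat and rose by 78.6% in siBcat (adjusted p = 9.78e-08, log2 fold change 0.84 ± 0.05 SE). Eif2s1, which encodes eIF2alpha, rose by 0.40 (adjusted p = 0.000123) and Eif2ak2, an interferon-inducible kinase of eIF2alpha, by 0.54 (adjusted p = 0.0127).

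Genes of translation factors were also counted by compartment. Of 6 cytosolic elongation factor genes 5 rose in siBcat (median 0.24), among them Eef1g (adjusted p = 0.000508, log2 fold change 0.33 ± 0.055 SE) and Eef1b2 (adjusted p = 0.00245, log2 fold change 0.41 ± 0.0835 SE), subunits of the complex that reloads the tRNA carrier eEF1A, and Eef2 (adjusted p = 0.0023, log2 fold change 0.25 ± 0.0506 SE), which moves the ribosome along. Eef1a1, the gene of the tRNA carrier itself, was not called in siBcat (0.03, adjusted p = 0.694). With GSK126 none of the 6 rose, and Eef1a1 (-0.20, adjusted p = 0.0117) and Eef2 (-0.20, adjusted p = 0.0131) fell. Of 10 mitochondrial translation factor genes only Gfm2, a ribosome recycling factor, rose in siBcat (adjusted p = 0.00266, log2 fold change 0.41 ± 0.0866 SE), and none fell. With GSK126 none was called, and 0 had an unadjusted p under 0.05. Over all genes, 17.7% were called higher and 17.5% lower in siBcat, and 14.3% and 10.7% with GSK126. The difference between these lists was not tested.

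Of 15 tested genes for synthetase partners and other enzymes acting on aminoacyl-tRNA, 5 rose and 1 fell in siBcat, and 5 rose and none fell with GSK126. The shares of all genes called higher and lower were 17.7% and 17.5% in siBcat, and 14.3% and 10.7% with GSK126. Prorsd1, named for a prolyl-tRNA synthetase associated domain, rose in siBcat (0.45, adjusted p = 0.00382). Aarsd1, an alanyl-tRNA editing gene, fell in siBcat (-0.33, adjusted p = 0.00662) and rose with GSK126 (0.33, adjusted p = 0.00976), and the direct comparison passed (adjusted p = 3.11e-05, log2 fold change -0.66 ± 0.0801 SE). Dtd1, which removes D-amino acids from tRNA, rose with GSK126 (0.37, adjusted p = 0.00174). Qrsl1, a subunit of the amidotransferase that makes mitochondrial glutaminyl-tRNA, rose with GSK126 (0.29, adjusted p = 0.0295) and differed in siBcat by -0.20 (adjusted p = 0.115).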

How the data were processed

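RNA-seq gene counts of 9 libraries, 3 per group, were used. The authors deposited raw counts per gene and library, with gene positions on mm10 and a coding length in bases per the file headers. The submitters' processing notes name TopHat2 2.0.6, HTSeq, bcl2fastq and mm10, with the gene annotation and strand setting not given in the sources used here. Every deposited count was even, so a fragment may have been counted as 2. Another 6 columns of per-sample values matched no sample and were left out, and the ChIP-seq data were not used here.

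The members and all gene lists were chosen with earlier results of these data known. Tests used edgeR 4.0.16 in R 4.3.3: genes were kept by filterByExpr with a count of at least 10 and a total of at least 15, libraries were scaled by TMM, and a robust quasi-likelihood model was fitted over all 9 libraries with 6 residual degrees of freedom and no replicate block, giving 3 comparisons. Benjamini-Hochberg adjustment covered all 13240 genes tested, at a threshold of 0.05; 10118 entries did not pass the filter. The common biological coefficient of variation was 8.12%. Levels are CPM after TMM scaling, and levels of different genes are compared per kilobase of coding length. The procedure was also run on simulated counts, and the outcome of that run is not reported here.

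Full values are given for up to 10 cytosolic and 5 mitochondrial members with the smallest adjusted p per treatment, up to 5 of each in the direct comparison, any called member against its set's direction, and up to 3 genes of each other list besides Atf4. Genes named beyond this rule were chosen after their values were seen. Some genes that the rule would name are not reported here. Alternatives were other scalings and filters, DESeq2 1.42.0, limma-voom (limma 3.58.1), a replicate block, a fit of only the 2 groups compared, halved counts, estimation without the robust option, a removed trend on coding length (loess, span 0.5) and each library left out; leaving Lars2 out of the mitochondrial set was added after seeing the data. Figures used Python 3.11.15 with matplotlib 3.10.9.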

Additional observations from a re-analysis of the deposited data

How the results depend on the processing

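No member changed direction in a called result under any of the 21 alternatives run. Of 20 members called in siBcat against siCTL, 14 were called under all 21; of 4 called with GSK126 only Qars was; and of 18 called in siBcat against GSK126, 15 were. With library size as the only scaling the median of all genes shifted to -0.0321, 0.0409 and -0.0816 in siBcat, in GSK126 and in the direct comparison, and direct calls went from 2549 higher and 2901 lower to 1882 and 3756. The medians of the cytosolic members then became 0.171, 0.0663 and 0.15 and those of the mitochondrial members 0.0265, 0.0675 and -0.0402, while GSK126 called 1 cytosolic member higher and 1 lower and no (0) mitochondrial member lower, and the direct comparison called 3 cytosolic members lower. Upper-quartile scaling left 1 mitochondrial member lower in siBcat. With only the 2 groups compared, GSK126 called 1 cytosolic member lower and 0 mitochondrial members in either direction. Without a filter no (0) mitochondrial member was called higher with GSK126. With the trend on coding length removed, GSK126 called 2 cytosolic members higher and 1 lower and 0 mitochondrial members higher, with a mitochondrial median of 0.0070. Without Lars2 the direct comparison had 1 mitochondrial member higher. With each library left out in turn, siBcat called 11 to 14 cytosolic members higher, and 1 to 4 mitochondrial members higher and 1 to 3 lower (mitochondrial median 0.0123 to 0.0763); GSK126 called 1 to 2 cytosolic members lower and 0 to 1 mitochondrial members in each direction (mitochondrial median 0.0022 to 0.0536); and the direct mitochondrial median ran from -0.016 to 0.0523. Over all genes, leaving out GSK126 replicate 3 gave 3202 higher and 3118 lower calls in siBcat against siCTL. The cause of these shifts was not tested. Replicate numbers did not pair the libraries: deviations of same-numbered libraries correlated between -0.031 and 0.069, and 0 of 9 pairs exceeded 0.1. With the replicate block, 0 mitochondrial members were lower with GSK126 (Iars2), Yars2 was not called in siBcat, and all-gene calls were 2278 higher and 2236 lower in siBcat, 1786 and 1349 in GSK126, and 2486 and 2781 in the direct comparison. Mitochondrial members other than Lars2 and Iars2 had fewer counts than the cytosolic members, which limits their precision.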
